A study of Mus musculus with 8 samples.

Results

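A set of 10 genes that 2 different hairpins against the long noncoding RNA Bloodlinc shifted to the same side of their control are described across 8 RNA-seq libraries of mouse erythroid progenitors. They were picked from the genes passing edgeR's test in the Bloodlinc knockdown. For each, Bloodlinc_sh1 and Bloodlinc_sh2 both lay above, or both below, Bloodlinc_shCTL. Another 6 passing genes also did so and are not in the set, so that rule alone does not define it. The set is 10 of 15355 genes tested and of 37620 gene IDs in the files, and all 10 were found and tested. Col18a1, Mgarp, Dglucy, Muc6, Rgs11, Plekha2 and Pgm1 were higher with the hairpins, and Cd82, Nyx and Vgf were lower. The values of the Bloodlinc knockdown therefore chose the genes, and they are given here as a description without a test.

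The cells were erythroid progenitors of C57BL/6 embryos at E14.5, sorted magnetically from fetal liver and kept for 24 h in medium with erythropoietin, the hormone that drives terminal red cell differentiation. Bloodlinc_sh1 and Bloodlinc_sh2 carried hairpins against Bloodlinc and were set against the control hairpin library Bloodlinc_shCTL. Bloodlinc_vector carried a vector for Bloodlinc and was set against Empty_vector, and hnRNPU_sh1 and hnRNPU_sh2 carried hairpins against Hnrnpu and were set against hnRNPU_shCTL. Each of the 8 names is 1 library of RNA depleted of ribosomal RNA, so a hairpin is never repeated and every control is a single library. The labels name no cultures or animals, and p-values here measure only the spread between these libraries, which may be technical.

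Bloodlinc is transcribed from an enhancer region near Slc4a1, which encodes the anion exchanger of the red cell membrane, and hnRNP U is a nuclear protein that binds RNA and chromatin. Progenitors in this culture normally leave the cell cycle, load haemoglobin and clear their organelles on the way to becoming reticulocytes. The 10 genes belong to no single pathway: they encode extracellular matrix and mucus proteins, mitochondrial and sugar-handling enzymes, adaptors of G protein and phosphoinositide signalling, a membrane tetraspanin, a retinal synapse protein and a neuropeptide precursor.

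Gene counts per library ran from 23682993 to 34540691 in 6 libraries. They came to 2931627 in hnRNPU_sh1 and 2612916 in hnRNPU_sh2, where 89.7% and 86.6% of counts with a unique position fell outside annotated genes, while the other 6 libraries had 21.7% to 30.1% there. Levels are TMM CPM, counts scaled by edgeR's TMM method to a common library size. A count of 0, read as up to 3 counts, allows 1.77 TMM CPM in hnRNPU_sh1 and 1.18 TMM CPM in hnRNPU_sh2, against at most 0.154 TMM CPM in the other 6 libraries. Intervals and floors cover counting error only. Bloodlinc itself stood at 2.19 and 1.75 TMM CPM with its hairpins against 4.46 TMM CPM in Bloodlinc_shCTL, and at 5.46 TMM CPM in Bloodlinc_vector against 1.26 TMM CPM in Empty_vector. Hnrnpu stood at 325 and 372 TMM CPM with the hnRNPU hairpins against 588 TMM CPM in hnRNPU_shCTL.

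RefSeq's table on GRCm38.p6 held promoter windows for 7 of the 10 genes (Col18a1, Mgarp, Dglucy, Muc6, Pgm1, Cd82 and Nyx), 11 windows in all, each from 250 bases before to 50 bases after a start. The windows at the outermost starts of 3 genes that were higher with both hairpins and of 1 that was lower are printed to show which erythroid and hypoxia motifs stand at genes that moved in the same libraries. They lie at chr10:77166481-77166780 (minus strand), chr3:51396498-51396797 (minus), chr4:99929201-99929500 (plus) and chr2:93462901-93463200 (minus). Capitals mark a match on either strand to a GATA factor motif (AGATAA, or the same letters with a leading T, a closing G or both), the hypoxia response core (ACGTG) or the CACC motif of the erythroid factor KLF1 (CCNCNCCC, N any base).
Col18a1: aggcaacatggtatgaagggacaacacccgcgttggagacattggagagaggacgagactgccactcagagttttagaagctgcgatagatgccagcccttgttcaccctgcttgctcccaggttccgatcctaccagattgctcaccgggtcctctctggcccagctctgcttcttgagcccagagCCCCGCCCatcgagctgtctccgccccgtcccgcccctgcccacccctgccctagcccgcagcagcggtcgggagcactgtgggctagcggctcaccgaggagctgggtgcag
Mgarp: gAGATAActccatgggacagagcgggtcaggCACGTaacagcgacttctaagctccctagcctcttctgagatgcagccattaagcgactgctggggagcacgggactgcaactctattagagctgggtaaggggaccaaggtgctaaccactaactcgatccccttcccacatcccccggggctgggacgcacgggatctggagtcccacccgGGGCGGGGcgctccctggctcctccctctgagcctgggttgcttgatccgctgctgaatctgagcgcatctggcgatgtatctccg
Pgm1: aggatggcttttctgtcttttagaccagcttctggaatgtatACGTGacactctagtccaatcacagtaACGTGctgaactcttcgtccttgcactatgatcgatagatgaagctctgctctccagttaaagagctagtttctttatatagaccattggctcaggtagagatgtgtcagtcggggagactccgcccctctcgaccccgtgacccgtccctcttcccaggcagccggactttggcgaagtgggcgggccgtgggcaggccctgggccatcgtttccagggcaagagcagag
Cd82: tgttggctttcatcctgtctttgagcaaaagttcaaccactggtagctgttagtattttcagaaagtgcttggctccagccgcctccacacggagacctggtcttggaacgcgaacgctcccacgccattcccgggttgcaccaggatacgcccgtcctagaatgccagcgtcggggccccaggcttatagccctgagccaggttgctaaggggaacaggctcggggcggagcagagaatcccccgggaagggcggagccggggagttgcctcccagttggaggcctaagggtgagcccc
Mgarp held one match of each kind, Pgm1 held the hypoxia core at 208 and 181 bases before the start, Col18a1 held a CACC match, and the Cd82 window held none of the 3. The other Cd82 starts held hypoxia core or CACC matches. Over all 11 windows, 2 held a GATA match, 5 the hypoxia core and 6 a CACC match, while 29.8%, 19.6% and 49.5% of all 32851 promoter windows in the table held them. Cd82 gave 4 of the 11 windows and Col18a1 gave 2, so the windows do not count separate genes. A match is a run of letters and not a measured binding site.

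**Figure D1:**
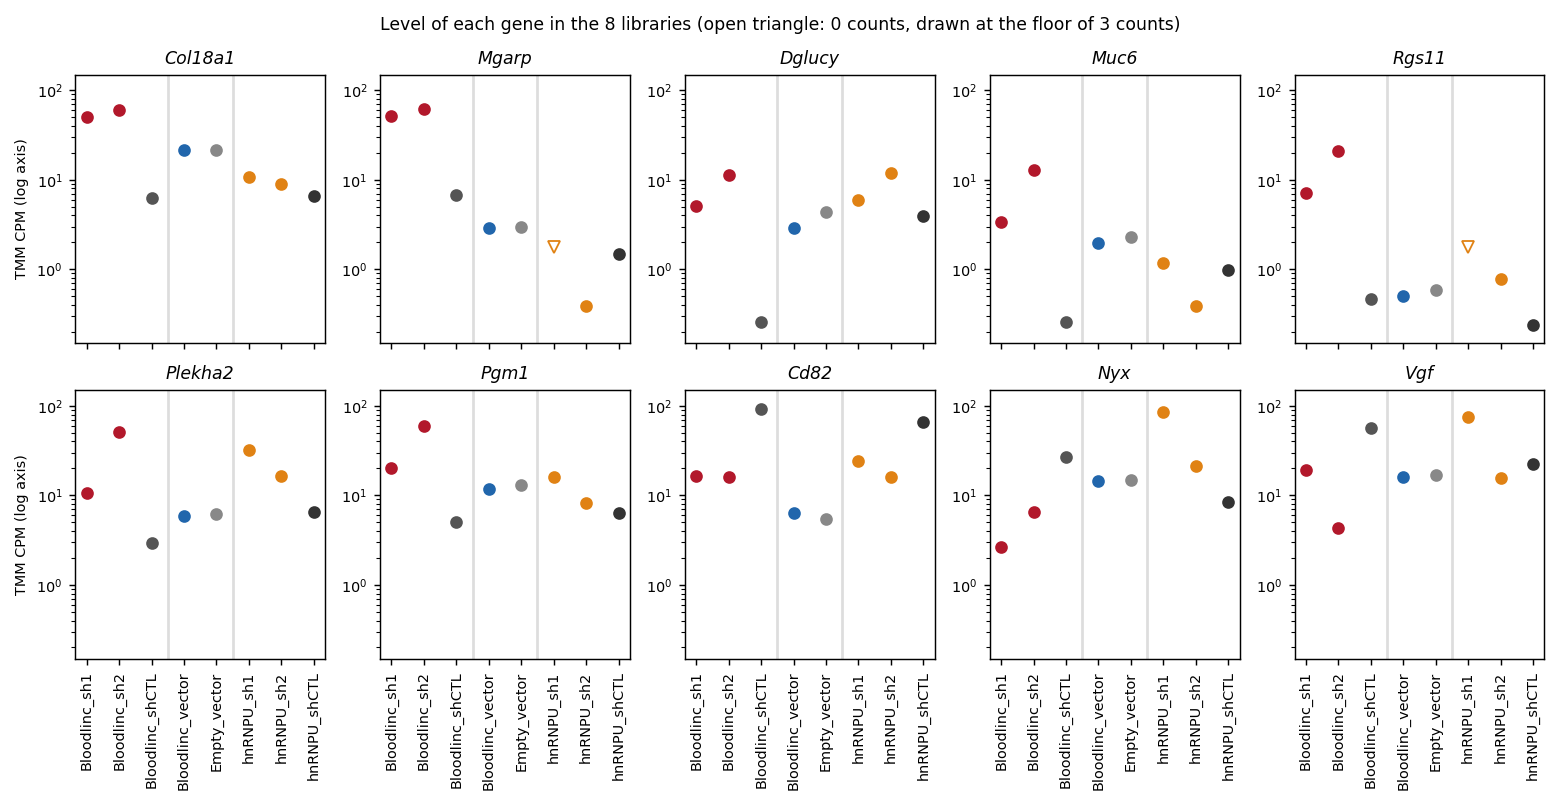
Level of each of the 10 genes in the 8 libraries, in TMM CPM on a log axis, with 1 point per library and the Bloodlinc knockdown, overexpression and hnRNPU knockdown side by side. Open triangles mark 0 counts, drawn at the floor of 3 counts; Mgarp stands at 52.1 and 62.0 TMM CPM with the Bloodlinc hairpins and under 7 TMM CPM in the other 6 libraries.

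Among the genes of matrix and mucus, Col18a1 (ENSMUSG00000001435, chr10:77052178-77166548 on GRCm38, as for all genes that follow) encodes the alpha chain of collagen XVIII, a basement membrane collagen whose end fragment is endostatin. It stood at 49.9 and 60.4 TMM CPM with Bloodlinc hairpins 1 and 2, against 6.25 TMM CPM in Bloodlinc_shCTL. It stood at 21.4 TMM CPM in Bloodlinc_vector and 21.5 TMM CPM in Empty_vector, and at 10.6 and 9.05 TMM CPM with the hnRNPU hairpins against 6.53 TMM CPM in hnRNPU_shCTL. The pair of Bloodlinc hairpin libraries was thus the highest of all, and the overexpression pair came next. Hairpin 2 was above hairpin 1 by 0.27 on the log2 scale, and the log2 fold change was 3.14 (SE 0.67).

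Muc6 (ENSMUSG00000048191, chr7:141633456-141655319) encodes a gel-forming mucin of the stomach. It held 78 and 393 counts with the Bloodlinc hairpins (3.42 and 12.7 TMM CPM) against 5 counts in Bloodlinc_shCTL (0.256 TMM CPM). The other controls held more than Bloodlinc_shCTL, with 2.32 TMM CPM in Empty_vector and 0.970 TMM CPM in hnRNPU_shCTL, and Bloodlinc_vector stood at 1.94 TMM CPM. The fold against Bloodlinc_shCTL, 4.95 on the log2 scale (SE 1.14), thus had the lowest of 3 controls under it. Markers of epithelium were nearly absent: their 12 levels summed to 1.27 and 0.713 TMM CPM with the hairpins against 0.307 TMM CPM in Bloodlinc_shCTL, and Epcam, Cldn4, Krt5 and Krt14 were at 0 in all 3 libraries.

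Of the mitochondrial and sugar-handling genes, Mgarp (ENSMUSG00000037161, chr3:51388412-51396738) encodes a mitochondrial protein that hypoxia induces in neurons, where it acts on mitochondrial transport. It stood at 52.1 and 62.0 TMM CPM with the Bloodlinc hairpins against 6.76 TMM CPM in Bloodlinc_shCTL, a log2 fold change of 3.08 (SE 0.70). Elsewhere it was low, at 2.88 TMM CPM in Bloodlinc_vector, 2.95 TMM CPM in Empty_vector and 1.49 TMM CPM in hnRNPU_shCTL. The Bloodlinc hairpins lay above every other library for this gene, and Bloodlinc_shCTL was the highest of the 3 controls, so the gap to the other controls was wider than the one that chose it.

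Dglucy (ENSMUSG00000021185, chr12:100779057-100896981) encodes D-glutamate cyclase, a mitochondrial enzyme that removes D-glutamate. It held 117 and 348 counts with the Bloodlinc hairpins (5.13 and 11.3 TMM CPM) against 5 counts in Bloodlinc_shCTL (0.256 TMM CPM), a log2 fold change of 4.98 (SE 1.04). In Empty_vector it stood at 4.40 TMM CPM, in hnRNPU_shCTL at 3.96 TMM CPM and with the hnRNPU hairpins at 5.91 and 11.8 TMM CPM. Hairpin 1 therefore lay close to the other controls, 0.22 and 0.37 above them on the log2 scale, and Bloodlinc_shCTL was the library that stood apart, 3.74 and 3.59 below them.

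Pgm1 (ENSMUSG00000025791, chr4:99929414-99987294) encodes a phosphoglucomutase, which moves glucose between glycolysis and glycogen. It stood at 20.2 and 60.1 TMM CPM with the Bloodlinc hairpins against 5.07 TMM CPM in Bloodlinc_shCTL, a log2 fold change of 2.98 (SE 0.70). The overexpression pair stood at 11.7 TMM CPM in Bloodlinc_vector and 13.2 TMM CPM in Empty_vector, and hnRNPU_shCTL at 6.35 TMM CPM. Hairpin 1 was 0.61 above Empty_vector on the log2 scale and hairpin 2 was 2.18 above it, so both lay outside the controls but by unequal amounts.

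Of the signalling adaptors, Rgs11 (ENSMUSG00000024186, chr17:26202951-26211324) encodes a regulator of G protein signalling that speeds the shut-off of G alpha subunits in retinal ON bipolar cells. It held 161 and 654 counts with the Bloodlinc hairpins (7.05 and 21.2 TMM CPM) against 9 counts in Bloodlinc_shCTL (0.461 TMM CPM), a log2 fold change of 4.92 (SE 1.05). In the other 5 libraries it never passed 0.787 TMM CPM. Rgs11 was thus low in all libraries but the Bloodlinc hairpins, which lay at least 3.44 above each control on the log2 scale, the smallest gap being that of hairpin 1 to Empty_vector.

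Plekha2 (ENSMUSG00000031557, chr8:25039144-25102376) encodes a plasma membrane adaptor whose pleckstrin homology domain binds a phosphoinositide made after PI3-kinase activation. It stood at 10.6 and 51.0 TMM CPM with the Bloodlinc hairpins against 2.97 TMM CPM in Bloodlinc_shCTL, a log2 fold change of 3.37 (SE 0.73). Empty_vector stood at 6.26 TMM CPM and hnRNPU_shCTL at 6.53 TMM CPM, while the hnRNPU hairpins gave 31.9 and 16.5 TMM CPM. The level with Bloodlinc hairpin 1 lay below both hnRNPU hairpins, and the 2 Bloodlinc hairpins were 2.26 apart on the log2 scale, the widest gap among the 10 genes.

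Of the genes lower with both hairpins, Cd82 (ENSMUSG00000027215, chr2:93419111-93463140) encodes a membrane tetraspanin that marks quiescent blood stem cells in mice. It stood at 16.5 and 16 TMM CPM with the Bloodlinc hairpins against 93.1 TMM CPM in Bloodlinc_shCTL, a log2 fold change of −2.52 (SE 0.52). The overexpression pair was lower still, with 6.42 TMM CPM in Bloodlinc_vector and 5.42 TMM CPM in Empty_vector, while hnRNPU_shCTL stood at 66.1 TMM CPM. The Bloodlinc hairpins were the closest pair of the 10 genes, yet they lay between the controls: 1.59 and 1.55 above Empty_vector and 1.99 and 2.04 below hnRNPU_shCTL on the log2 scale.

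Nyx (ENSMUSG00000051228, chrX:13466110-13489313) encodes nyctalopin, a leucine-rich repeat protein at the synapse of retinal ON bipolar cells. It stood at 2.67 and 6.54 TMM CPM with the Bloodlinc hairpins against 26.7 TMM CPM in Bloodlinc_shCTL, a log2 fold change of −2.53 (SE 0.56). Empty_vector stood at 15.0 TMM CPM and hnRNPU_shCTL at 8.52 TMM CPM, both above the hairpins. Nyx was the single gene of the 3 lower ones whose hairpins lay below every control, and the one gene where hairpin 1 lay farther from Bloodlinc_shCTL than hairpin 2.

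Vgf (ENSMUSG00000037428, chr5:137026392-137033351) encodes a secreted precursor of neuropeptides. It stood at 19.2 and 4.34 TMM CPM with the Bloodlinc hairpins against 57.2 TMM CPM in Bloodlinc_shCTL, a log2 fold change of −2.28 (SE 0.54). Empty_vector stood at 17.1 TMM CPM and hnRNPU_shCTL at 22.6 TMM CPM. Hairpin 1 was within 0.24 of both other controls on the log2 scale, and hairpin 2 was below them by 1.96 and 2.36.

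Per kilobase of exon, the mean level over the 8 libraries was 10.1 TMM CPM for Cd82, 9.53 for Vgf, 7.78 for Mgarp, 6.03 for Pgm1, 4.37 for Nyx, 3.31 for Col18a1, 2.95 for Plekha2, 1.24 for Dglucy, 0.916 for Rgs11 and 0.310 for Muc6. These means lay between the percentiles 22.0 and 78.7 of all annotated genes tested. The 3 genes with the largest folds, Dglucy, Muc6 and Rgs11, were the 3 with the lowest levels, and each was under 1 TMM CPM in Bloodlinc_shCTL. In bulk RNA, more or fewer cells that express a gene and more or less RNA per cell cannot be told apart.

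In the comparison that chose the genes, 19 of 15355 genes passed (0.124%), 15 of them higher (0.0977%, 7 of them among the 10 genes) and 4 lower (0.0261%, 3 of them among the 10). In 16 of the 19, hairpins 1 and 2 shared a side of Bloodlinc_shCTL, as they did in 62.2% of all genes tested. The 6 of these that are not among the 10 were Trpv2, Aqp8, Cgn, Nabp1, Spns2 and Fos, whose hairpins lay 2.19 to 4.47 apart on the log2 scale, without regard to sign. At the threshold of 0.05, Vgf had the highest adjusted p by edgeR's quasi-likelihood test among the 10 genes (0.0320), and the nearest genes outside it were Trio (0.0557) and Zfp608 (0.0610). DESeq2 called 5 of the 15355 genes tested, all of them among the 10 (Col18a1, Mgarp, Dglucy, Rgs11 and Cd82). Leaving out Bloodlinc hairpin 2, hnRNPU hairpin 1 or hnRNPU hairpin 2 left 0 of the edgeR calls, with 291, 501 and 497 genes at an unadjusted p under 0.05, and leaving out Bloodlinc hairpin 1 gave 63 calls. Hairpin 2 lay farther from Bloodlinc_shCTL than hairpin 1 for 9 of the 10 genes. The median gap between hairpins was 1.42 on the log2 scale for the 10 genes and 0.51 for all genes tested.

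The other control libraries show how far each gene depends on which library it is set against. Of these, Empty_vector held less Bloodlinc (1.26 TMM CPM) than either Bloodlinc hairpin library (2.19 and 1.75 TMM CPM). Both Bloodlinc hairpins lay outside all 3 controls on the same side for 8 of the 10 genes, against 22.3% of all genes tested, and the choice of the genes had already fixed the side of 1 of those 3 controls. Against Empty_vector and hnRNPU_shCTL alone the count was also 8 of 10, against 56.6% of all genes. The hairpin values in that count had also chosen the genes, so it too is only a description. The 7 genes higher with the hairpins lay above all 3 controls (10.9% of all genes) and 1 of the 3 lower ones, Nyx, lay below them (11.3%). Bloodlinc_shCTL was the lowest control for 5 of the 7 higher genes, against 44.5% of all genes tested, and the highest control for all 3 lower genes, against 35.5%. The highest and lowest control differed by at least 2-fold for all 10 genes, against 62.5% of all genes tested, and by 17.2-fold for both Dglucy and Cd82. The Bloodlinc_shCTL values had helped choose the genes, so these shares of controls are not independent of that choice.

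**Figure D2:**
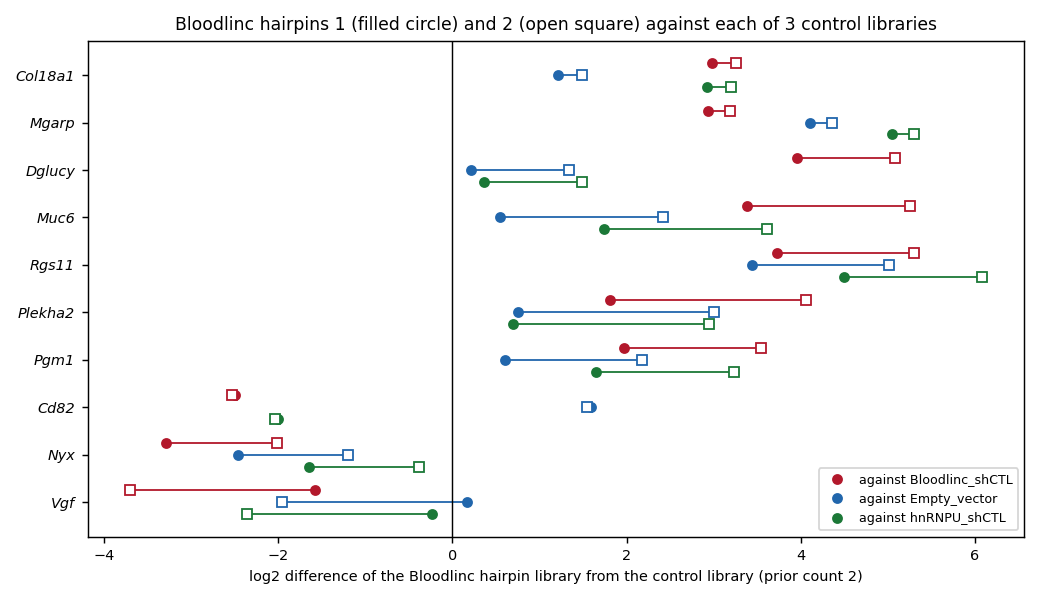
Log2 difference of Bloodlinc hairpin 1 (filled circle) and hairpin 2 (open square) from each of the 3 control libraries, with 1 colour per control and 1 row per gene. The 7 upper genes stay right of 0 against every control, while Cd82 lies at −2.49 and −2.53 against Bloodlinc_shCTL and at 1.59 and 1.55 against Empty_vector.

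The levels of 11 erythroid markers summed to 32118 and 26264 TMM CPM with the hairpins against 55662 TMM CPM in Bloodlinc_shCTL, and to 12173 and 35491 TMM CPM in Empty_vector and hnRNPU_shCTL, a range over controls wider than the difference from the hairpins. All 11 had a log2 fold change below 0 (median −0.84), but 0 passed edgeR's test. Of all 84 markers tested in 9 lists, edgeR and DESeq2 called 0 in the Bloodlinc knockdown. At an unadjusted p under 0.05 lay 11 of the 84, beside 612 of all 15355 genes tested. Granulocyte markers summed to 43.0 and 54.5 TMM CPM with the hairpins against 105 TMM CPM in Bloodlinc_shCTL, with 2 of 12 above 0. Their sums in Empty_vector and hnRNPU_shCTL were far higher, at 1025 and 1669 TMM CPM. Endothelial markers, of interest beside Col18a1, summed to 21.1 and 12.2 TMM CPM against 17.9 TMM CPM, and Emcn, Lyve1, Stab2 and Cldn5 were at 0 in all 3 libraries. The part of red cell stage or granulocyte content in the levels of the 10 genes was not tested.

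The overexpression pair asks whether the genes move when Bloodlinc is raised above its level in Empty_vector, and its libraries did not choose the genes. Bloodlinc stood at 5.46 TMM CPM in Bloodlinc_vector, beside 4.46 TMM CPM in Bloodlinc_shCTL and 4.35 TMM CPM in hnRNPU_shCTL. Its 1.26 TMM CPM in Empty_vector lay below the 2.19 and 1.75 TMM CPM with the Bloodlinc hairpins. With 1 library per arm there is no test. None of the 10 genes differed by 2-fold or more, and 1.75% of all genes tested did. Dglucy differed most, with 131 counts (2.86 TMM CPM) in Bloodlinc_vector against 182 counts (4.40 TMM CPM) in Empty_vector, a log2 difference of −0.61 with an exact 95% counting interval of −0.96 to −0.29. It was the single gene of the 10 whose counting interval left out 0. For Col18a1 the interval ran from −0.14 to 0.12 and for Mgarp from −0.40 to 0.33, so a 2-fold difference lay outside both intervals. For Rgs11, on 23 counts in Bloodlinc_vector against 24 counts in Empty_vector, the interval of −1.10 to 0.68 was too wide to say so.

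In sign, 8 of the 10 genes went opposite to the Bloodlinc knockdown in the overexpression pair, against 50.8% of all genes tested. All 7 genes that were higher with the hairpins had a log2 difference below 0, although Col18a1 at −0.01 turned to 0.01 with scaling by library totals. With Bloodlinc_shCTL in place of Empty_vector, Mgarp alone of these 7 stayed below 0, at −1.21. The Bloodlinc_shCTL values had helped choose these genes, so that comparison is no separate test. Cd82 was the gene above 0, at 0.24 (interval −0.01 to 0.50), with 6.42 TMM CPM in Bloodlinc_vector and 5.42 TMM CPM in Empty_vector. Nyx and Vgf, at −0.07 and −0.09, had the sign of the knockdown. The median size of the difference, without regard to sign, was 0.13 for the 10 genes and 0.12 for all genes tested.

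The hnRNPU fold changes also played no part in choosing the genes and can be tested, with 2 hairpin libraries and 1 control. The hnRNPU hairpins did enter the shared spread of the fit whose calls the genes were picked from. The test is therefore not fully separate from that choice. Of the 10 genes, 1 passed edgeR's quasi-likelihood test, against 0.879% of all genes tested (135 genes, with 89 or 0.58% higher and 46 or 0.3% lower). With DESeq2's size factors or upper quartile scaling, the share of higher genes among the calls was 76.8% or 79.8%, with robust estimation it was 45.5%, and in the fit as described it was 65.9%. The median log2 fold change of all genes was 0.03 with DESeq2's size factors and 0.07 with upper quartile scaling, against −0.09 with TMM. The gene that passed was Nyx, at 86.3 and 21.3 TMM CPM with the hnRNPU hairpins against 8.52 TMM CPM in hnRNPU_shCTL. Its log2 fold change was 2.64 (SE 0.67, adjusted p = 0.0161), higher in 2 of 2 hairpin libraries, while the Bloodlinc hairpins held the lowest levels of this gene. The gap between the hnRNPU hairpins was wide, with log2 differences of 3.33 and 1.31 from the control. Over 15 alternative settings the adjusted p ran from 0.00398 to 1, 8 of them past the threshold. Against Bloodlinc_shCTL, whose level had helped choose Nyx, the log2 fold change was 0.997 (adjusted p = 0.294), which is therefore no separate test. Without hnRNPU hairpin 1 it was 1.31 and without hnRNPU hairpin 2 it was 3.33, neither past the threshold.

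Cd82 gave 24.2 and 16.1 TMM CPM with the hnRNPU hairpins against 66.1 TMM CPM in hnRNPU_shCTL, levels close to those with the Bloodlinc hairpins. Its log2 fold change of −1.72 (SE 0.54) missed the threshold in edgeR's test (unadjusted p = 0.00167, adjusted p = 0.12). Against Bloodlinc_shCTL, whose level had helped choose Cd82, it was −2.22, which is therefore no separate test. Plekha2 had a log2 fold change of 1.88 (SE 0.67, edgeR adjusted p = 0.223), with both hnRNPU hairpins above every control. Mgarp held 0 and 1 counts with the hnRNPU hairpins against 57 counts in hnRNPU_shCTL. The ratio of the summed counts, scaled to depth, was 0.158 with a 95% counting interval of 0.00393 to 0.917, and the fitted log2 fold change of −2.65 rests on that 1 count (edgeR adjusted p = 0.436).

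The remaining 6 genes stayed above an edgeR adjusted p of 0.6 in the hnRNPU knockdown. Dglucy, Vgf, Pgm1 and Col18a1 had log2 fold changes of 1.18 (SE 0.80), 0.98 (SE 0.60), 0.91 (SE 0.65) and 0.58 (SE 0.62). Rgs11 and Muc6 rested on 2 and 3 summed counts in the hnRNPU hairpin libraries, with count ratios of 2.0 (0.211 to 9.67) and 0.731 (0.144 to 2.31), so no difference was detectable at this depth. At an unadjusted p under 0.05 lay 4 of the 10 genes (Mgarp, Plekha2, Cd82 and Nyx), against 9.89% of all genes tested. Both hnRNPU hairpins lay on the same side of hnRNPU_shCTL for 7 of the 10 genes, against 71% of all genes. The sign of the fold change was that of the Bloodlinc knockdown for 6 of the 10, against 56.4% of all genes.

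Of the 84 markers tested, 3 rose by edgeR's test in the hnRNPU knockdown (Ngp, Ltf and the endothelial marker Esam). Of all 15355 genes tested, 89 did. At an unadjusted p under 0.05 lay 19 of the markers (1518 of all genes tested), and DESeq2 called 4 (100 of all). Granulocyte markers summed to 9501 and 3542 TMM CPM with the hnRNPU hairpins against 1669 TMM CPM in hnRNPU_shCTL, and all 12 had a log2 fold change above 0. Esam stood at 28.4 and 21.3 TMM CPM against 2.67 TMM CPM (log2 fold change 3.21, edgeR adjusted p = 0.0154). Macrophage markers summed to 1547 and 474 TMM CPM against 237 TMM CPM, but Lyz2 alone gave 1472, 443 and 216 TMM CPM of these sums, 6 of the 10 tested were above 0 and 0 passed edgeR's test. In hnRNPU_sh1, where Nyx and Vgf reached their highest levels of all 8 libraries, the granulocyte and macrophage sums were the highest as well. Their part in the Nyx result was not tested.

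**Figure D3:**
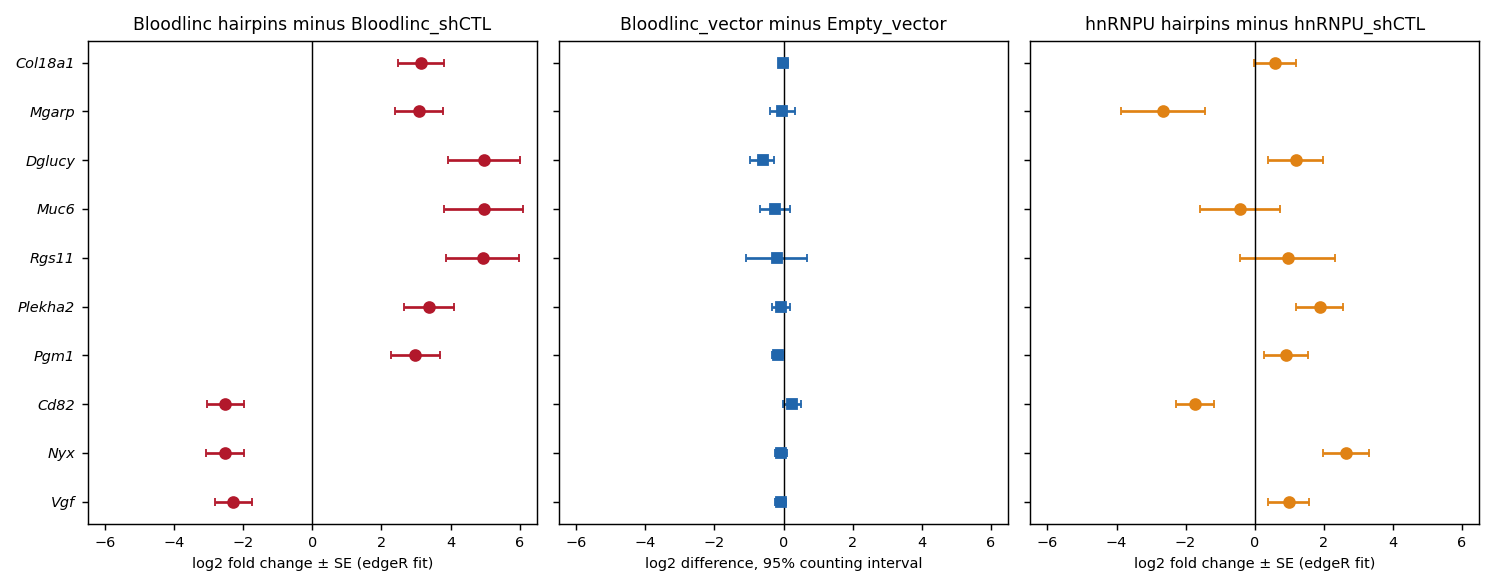
The 10 genes in the Bloodlinc knockdown (left, edgeR log2 fold change ± SE, which chose the genes), in the Bloodlinc overexpression pair (middle, log2 difference with its 95% counting interval) and in the hnRNPU knockdown (right, edgeR log2 fold change ± SE). The overexpression differences stay within 0.61 of 0, and Nyx lies at −2.53 on the left and at 2.64 on the right.

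Genes related to each of the 10 by family or pathway were read from 10 lists, 107 genes tested. Of these, 0 passed edgeR's test in the Bloodlinc knockdown, 10 lay at an unadjusted p under 0.05 (612 of all 15355 genes tested) and DESeq2 called 0. Their median log2 fold change was 0.40, with 79 of 107 above 0, beside a median of 0.06 and 53.5% above 0 over all genes tested. In the hnRNPU knockdown edgeR and DESeq2 again called 0 of the 107, 16 lay at an unadjusted p under 0.05 (1518 of all genes tested), and the median was 0.34.

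In the basement membrane list beside Col18a1, 9 of 11 genes were above 0 (median 2.12), but most stood near the limit of detection. The heparan sulphate proteoglycan gene Agrn, the most abundant, stood at 61.5 and 51.7 TMM CPM with the Bloodlinc hairpins against 52.6 TMM CPM in Bloodlinc_shCTL, and the laminin gene Lama5 at 7.49 and 14.3 TMM CPM against 8.20 TMM CPM. Of the phosphoglucomutase and glycogen list beside Pgm1, 13 of 15 genes were above 0 (median 0.41). The glycolytic isomerase gene Gpi1 stood at 136 and 127 TMM CPM against 47.7 TMM CPM (log2 fold change 1.46, SE 0.60, edgeR adjusted p = 0.919), and the hexokinase gene Hk1 at 698 and 617 TMM CPM against 550.3 TMM CPM.

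For Mgarp, the list of mitochondrial transport adaptors and hypoxia target genes had 12 of 16 above 0 (median 0.23). The glucose transporter gene Slc2a1, at 5600.5 and 2604 TMM CPM with the hairpins against 5654 TMM CPM, and the mitochondrial trafficking adaptor gene Trak2, at 934 and 511 TMM CPM against 1423 TMM CPM, were the most abundant and were below 0. Of the 12 genes of proline and glutamate metabolism beside Dglucy, 7 were above 0 (median 0.04). The glutathione synthesis gene Gclc stood at 470 and 150 TMM CPM against 765 TMM CPM, and the glutamine synthetase gene Glul at 143 and 282 TMM CPM against 212 TMM CPM. So the large shifts of Mgarp and Dglucy stood beside relatives with medians within 0.25 of 0.

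For the signalling genes, 8 of 11 regulators of G protein signalling were above 0 (median 0.42), with Rgs10 at 67.6 and 83.3 TMM CPM against 51.8 TMM CPM and Rgs18 at 14.3 and 52.1 TMM CPM against 24.8 TMM CPM. In the PLEKHA and phosphoinositide list 11 of 14 were above 0 (median 0.56), but the PI3-kinase regulatory subunit gene Pik3r1 stood at 176 and 126 TMM CPM against 374 TMM CPM (log2 fold change −1.31, SE 0.54, edgeR adjusted p = 0.936). Of the 17 tetraspanins other than Cd82, 13 were above 0 (median 0.39), the side opposite to Cd82. The most abundant of them were below 0, with Tspan33 at 358 and 294 TMM CPM against 552 TMM CPM and Cd81 at 68.9 and 52.6 TMM CPM against 119 TMM CPM.

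The lists for Muc6, Nyx and Vgf held few measured genes. Of 4 mucins tested, 1 was above 0 (median −0.07), and the sialomucin gene Cd164 stood at 73.3 and 50.1 TMM CPM against 68.1 TMM CPM and the stem cell mucin gene Cd34 at 1.40 and 1.65 TMM CPM against 2.25 TMM CPM. Of 12 small leucine-rich proteoglycan genes listed beside Nyx, Podn alone was tested, at 0.175 and 0.162 TMM CPM against 0.102 TMM CPM. Of 6 granin and peptide processing genes, 4 were above 0 (median 0.41), with the protease gene Furin at 48.8 and 31.6 TMM CPM against 36.4 TMM CPM and the amidating enzyme gene Pam at 2.02 and 1.91 TMM CPM against 1.23 TMM CPM.

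**Figure D4:**
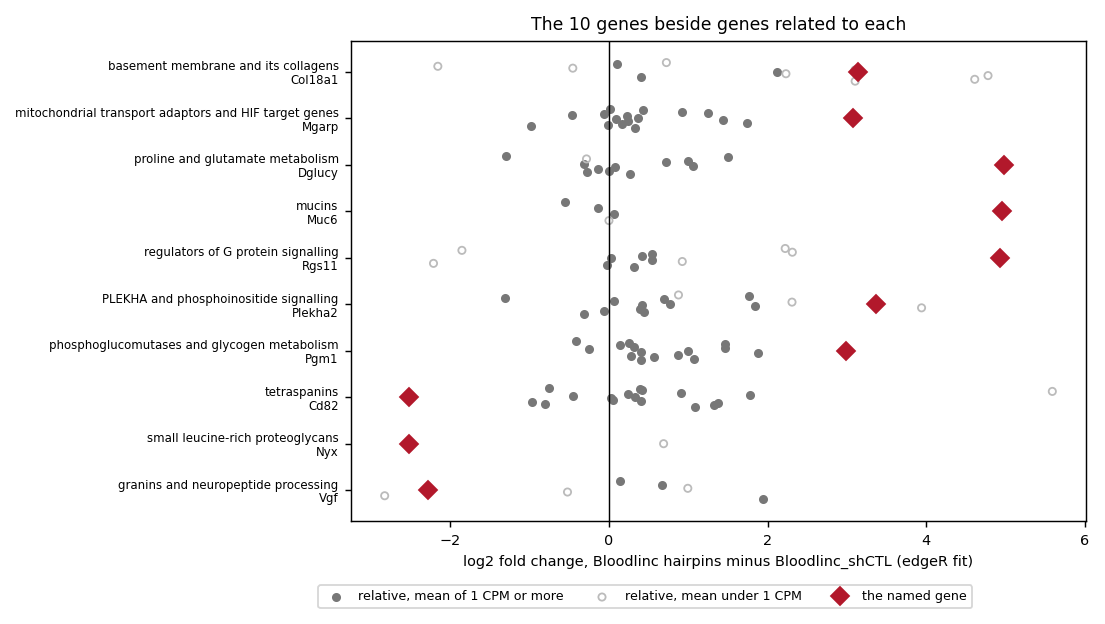
Log2 fold change in the Bloodlinc knockdown (edgeR fit) of the 10 genes, as diamonds, beside the related genes of each list, as filled circles where the mean is 1 TMM CPM or more and open circles where it is lower. The 7 upper diamonds lie right of every filled circle of their lists, and 0 of the 107 relatives passed the test.

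The nearest genes on the chromosome were read in the same fit. Of these 20 neighbours, 1 on each side of each gene, 0 passed edgeR's test, 1 lay at an unadjusted p under 0.05 and DESeq2 called 0. Their median size of log2 fold change, without regard to sign, was 0.46, beside 0.45 over all genes tested, and 10 of the 20 had the sign of the gene beside them. Beside Rgs11, Fam234a, 498 bp away, stood at 2.10 and 12.8 TMM CPM with the Bloodlinc hairpins against 1.49 TMM CPM (log2 fold change 2.32, SE 0.87, edgeR adjusted p = 0.752), and Arhgdig, which overlaps Rgs11 on the other strand, at 36.2 and 42.1 TMM CPM against 17.1 TMM CPM. Overlapping genes on the other strand were also found for Col18a1 (Slc19a1) and Pgm1 (Itgb3bp). The strand setting of the counting is not given in the sources used here, so reads from such pairs may be shared. Slc19a1 and Itgb3bp had log2 fold changes of −0.21 and 0.03 in the Bloodlinc knockdown.

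The genes most like each of the 10 were sought by Pearson's r of log2 TMM CPM over the 8 libraries, among protein-coding genes with a mean of at least 5 TMM CPM. These r values are descriptions over libraries that share their controls and scaling. Mgarp was closest to Atp6v0a2 (r = 0.996), a subunit gene of the vacuolar proton pump, and to Rnf220 (0.989), and Rgs11 to Atpaf1 (0.989), an assembly factor gene of the mitochondrial ATP synthase. Pgm1 was closest to Ero1l (0.989), an oxidase gene of protein folding in the endoplasmic reticulum, and Muc6 to the glycolytic aldolase gene Aldoa (0.969). Col18a1 was closest to Acadm (0.977), a dehydrogenase gene of fatty acid oxidation, Dglucy to Bcl2l11 (0.948), which encodes the death protein BIM, and Plekha2 to Tom1 (0.962). Among the lower genes, Cd82 was closest to Pnp2 (0.960), Nyx to Slfn9 (0.947) and Vgf to Tmcc2 (0.972).

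Among themselves, the 10 genes did not run as one block over the libraries. Muc6 and Pgm1 had r = 0.925 over the 8 libraries, Col18a1 and Muc6 0.913 and Mgarp and Rgs11 0.891. Mgarp and Dglucy, both mitochondrial and both higher with the Bloodlinc hairpins, had r = −0.09. Mgarp and Nyx had r = −0.84, and Cd82 and Nyx, both lower with the Bloodlinc hairpins, had r = 0.143.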

How the data were processed

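The authors deposited raw counts per gene, 1 file for each of 8 libraries (6 groups), with 37620 gene IDs and 5 summary entries that were left out of library sizes. Per the submitters' processing notes, TopHat2 2.0.11 and HTSeq were used with mm9. The HTSeq version, annotation and strand setting are not given in the sources used here. GENCODE M21 (GRCm38) gave symbols for 87.4% of IDs and positions, which were not used for counting.

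All libraries entered 1 model in edgeR 4.0.16 (R 4.3.3). It used TMM factors, the filter of filterByExpr (15355 genes tested), quasi-likelihood F-tests and Benjamini-Hochberg adjustment over all genes tested at 0.05. Only the 2 hairpins of each target repeat, leaving 2 residual degrees of freedom beside 404 prior ones, and each single control was assumed to vary like them. Each SE is the size of the log2 fold change divided by the square root of its F statistic, since edgeR's test gives no standard error. Log2 differences between libraries used a prior count of 2. The overexpression pair carries exact conditional binomial intervals (95%). DESeq2 1.42.0 and the other settings were alternatives. The fit was tested on simulated data.

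The 10 genes and the lists (247 entries, 3 unmatched) were chosen with earlier results of these data known. Besides the 10 genes, the text names the targets, the 2 most abundant genes of each list unless some passed, and the most alike and neighbouring genes. Of the neighbours and of the second most alike genes, only some are printed, and some named-list results are not reported here.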

Additional observations from a re-analysis of the deposited data

Results flagged for a closer look

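For 2 of the 10 genes, the values with both hnRNPU hairpins lay on the opposite side of their control from those with both Bloodlinc hairpins. Nyx had a log2 fold change of 2.64 in the hnRNPU knockdown and −2.53 in the Bloodlinc knockdown. Mgarp had a log2 fold change of −2.65 in the hnRNPU knockdown, on 1 summed count (edgeR adjusted p = 0.436), and 3.08 in the Bloodlinc knockdown. The floor of 3 counts in hnRNPU_sh1 (1.77 TMM CPM) lies above the level of Mgarp in hnRNPU_shCTL (1.49 TMM CPM), so a lower level in that library was not detectable at its depth. The difference between the knockdowns was not tested, because the Bloodlinc values had chosen these genes.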

How the results depend on the processing

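No paired analysis was possible because the hairpin numbers name different hairpins against different targets and each control is 1 library. In the Bloodlinc knockdown 19 genes were called. The count was 5 with DESeq2 or robust estimation, 1044 against the other control hairpin library, and 0 (edgeR) with a filter of 5 CPM in 2 libraries (278 at an unadjusted p under 0.05), the 3 libraries alone (369), the 3 controls as 1 group (1565), thinning to the shallowest library (298) or, added after seeing the data, without both hnRNPU hairpins. Leaving out 1 hairpin library gave 0 to 63 calls: 63 without Bloodlinc hairpin 1 and 0 without any of the other 3, where the lone hairpin was assumed to vary like the others. The signs of the 10 fold changes held in all these settings, except that Muc6 was not tested with the 5 CPM filter. In the hnRNPU knockdown the 135 calls became 8 with the 5 CPM filter, 66 with robust estimation, 2341 against the other control hairpin library, 7 with the 3 controls as 1 group, 12 after thinning and 7 to 121 without 1 hairpin library (7 without hnRNPU hairpin 1, 59 without hnRNPU hairpin 2). Of the 10 genes, 4 were called against the other control hairpin library, whose values had helped choose them. The count was 0 with the 5 CPM filter, robust estimation, the 3 controls as 1 group or thinning, and 0 to 1 without 1 hairpin library. Signs turned for Muc6 (1.49), Rgs11 (−0.00208) and Vgf (−0.36) against the other control hairpin library, Col18a1 (−0.23) with the 3 controls as 1 group, Vgf (−0.53) without hnRNPU hairpin 1 (1.71 without hnRNPU hairpin 2), Muc6 (0.28) and Rgs11 (−5.78) without hnRNPU hairpin 2 (−1.30 and 1.71 without hnRNPU hairpin 1), and Muc6 (1.27) after thinning. In overexpression, 7 of the 10 genes passed 2-fold against Bloodlinc_shCTL (7435 of all 15355 genes tested) and 2 against hnRNPU_shCTL (3598 of all). The Bloodlinc_shCTL values had helped choose the genes, so the count and signs against it are no separate test. Against Bloodlinc_shCTL the sign turned for Col18a1 (1.76), Dglucy (3.13), Muc6 (2.59), Rgs11 (0.11), Plekha2 (0.98), Pgm1 (1.20) and Cd82 (−3.84). The sign held there for Mgarp (−1.21), Nyx (−0.90) and Vgf (−1.82). Signs also turned for some genes against hnRNPU_shCTL. The cause was not tested.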
